A study of Danio rerio with 27 samples.

Results

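The 33 genes described here encode the enzymes that turn glucose into lactate, and they were taken from a list of zebrafish gene symbols covering 11 enzyme steps, 10 of them with at least 2 genes. All 33 were found among the 32524 Ensembl genes measured. The question was which paralogue of each step each tissue used. RNA was measured in heart, muscle, skin, tail, liver, intestine, spleen, brain and testis of adult wild-type zebrafish of the TLAB strain, a cross of the TL and AB strains, with 3 libraries per tissue and 27 in all. The labels name no treatment. The labels do not say how many fish were used, their age, or whether libraries came from separate fish, so p-values measure the spread between these libraries, which may be technical.

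Glycolysis splits a molecule of glucose into a pair of pyruvate molecules and yields ATP without oxygen. Hexokinase traps glucose in the cell, phosphofructokinase is the main point of control, aldolase splits the sugar, and pyruvate kinase makes the last ATP. Lactate dehydrogenase then interconverts pyruvate and lactate, which lets the pathway run when oxygen is short. Liver, and to a lesser degree intestine, also run most of these steps backwards to make glucose, and the reversible enzymes serve both directions. Most steps have several genes in vertebrates, and in mammals the copies are known by the tissue they serve: muscle, liver, brain or sperm forms. Teleost fish hold further copies from a whole-genome duplication in their ancestor, usually named with the endings a and b.

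The table of identifiers used here gives many zebrafish genes the symbol of the human gene, without the endings a and b. Of the 33 genes, 13 were found under their own symbol. Another 18 form 9 pairs of identifiers that share a symbol, and these are called x for the lower identifier number and y for the higher, for example PFKM-x (ENSDARG00000014179) and PFKM-y (ENSDARG00000060797). Which of x and y is the a copy and which the b copy was not resolved. The gene listed as ldhba appears as LDHB (ENSDARG00000019644). The table's only phosphoglycerate kinase appears as PGK2 (ENSDARG00000054191) and was taken for the listed pgk1. The further identifiers are given with each step. Where copies are alike in sequence, the authors' quantification had to divide reads between them, and how well it did so was not tested.

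Levels are in TPM, a transcript abundance that corrects for transcript length and sums to 1e+06 in every library. Estimated counts per library were 5100481 to 14151312 in 26 libraries and 91119844 in testis replicate 3. All 33 genes passed the filter of at least 1 TPM in at least 3 libraries, as did 25245 genes in all. Fold changes are differences of mean log2(TPM + 1) between a tissue and the mean of the 8 other tissues, fitted with limma over all 25245 genes. For each gene all tissues share a single estimate of the spread, so an SE is not the spread of its tissue alone. This scale understates the change of low genes. A call needed an adjusted p (Benjamini-Hochberg) below 0.05 and a change of 1 or more on the log2 scale, in either direction. Over all genes the median change on the log2 scale was -1.06 in liver, 0.754 in brain and 0.889 in testis, so counts are also given after median-of-ratios rescaling of the libraries, which brought the tissue medians to between -0.337 and -0.00556. A share is the percent that a gene takes of the summed TPM of the listed genes of its step within a library. It does not depend on that scaling, and genes outside the list are not counted unless stated. Beyond the tests of fixed shares given with the steps, shares and leading paralogues are descriptions.

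Most lists of marker genes were high where the labels place them, but not only there. Lymphoid and myeloid markers, 4 identifiers, did not single out spleen. Their summed TPM had a mean of 20.7 in spleen, 95.6 in muscle (12.3 to 254 over its libraries) and 34.1 in testis. Over 10 identifiers of skeletal muscle markers, summed TPM was 42136 to 57646 in the muscle libraries and 41959.8 to 48295 in the skin libraries. In the heart libraries it was 4906 to 7588. Over 3 identifiers of keratinocyte markers it was 6086 to 10425 in muscle, 2208 to 4451 in skin and 36423 to 42354 in tail. The skin libraries thus held muscle transcripts at about the level of muscle, and the muscle libraries held more keratin transcripts than skin. Liver markers, 7 identifiers, summed to 37712, 14172 and 7338 TPM in intestine replicates 1, 2 and 3 against 147429 to 188145 in liver. Exocrine pancreas markers, 2 identifiers, summed to 7915 to 13901 TPM in intestine and 274 to 5746 in spleen. Erythrocyte markers, 3 identifiers, summed to 19656 to 56992 TPM in spleen and 4747 to 22214 in heart. Germ cell markers, 5 identifiers, summed to 2858 to 3225 TPM in testis and to 27.04 in muscle replicate 2. The part of these transcripts in the values below was not tested, and in bulk tissue fewer cells of a type and less RNA per cell cannot be told apart.

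**Figure D1:**
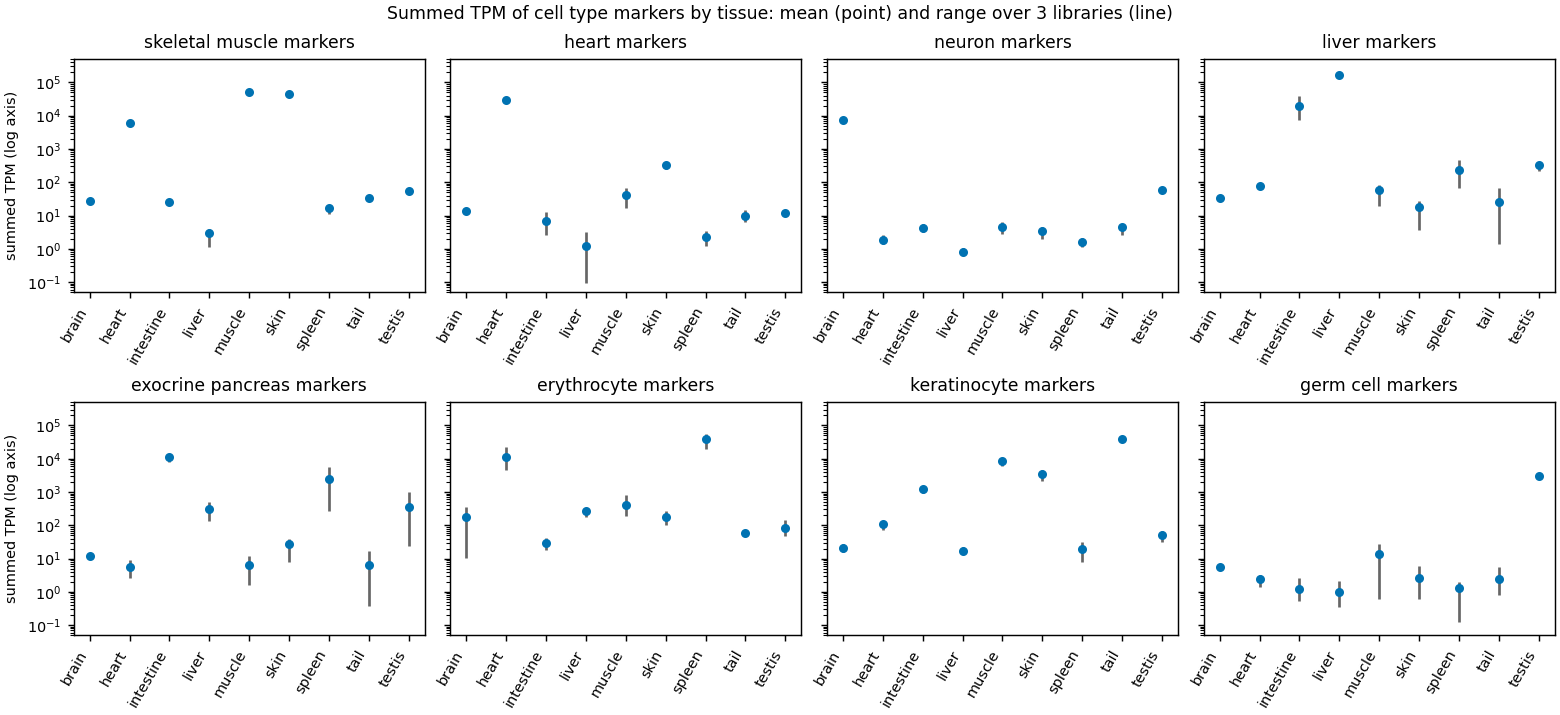
Summed TPM (log axis) of 8 lists of cell type markers in each tissue; points are means and lines the range over 3 libraries. Skeletal muscle markers in skin overlap the range of muscle, and liver markers reach 37712 TPM in intestine.

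As deposited, the sum of the 33 genes was highest in heart, at 39716 ± 1901 TPM (SD, n = 3, as for all values given with ±). Skin followed at 21592 ± 1726, muscle at 16889 ± 2562, liver at 15837 ± 1440.4, brain at 12319 ± 454 and intestine at 8676 ± 951 TPM. Testis, tail and spleen were far lower, at 2196 ± 111, 1704 ± 121 and 1190.2 ± 439.6 TPM. A single gene, gapdh, made much of this order. Without it heart stood at 15014, brain at 12302 and skin at 9432 TPM, ahead of liver at 6702 and muscle at 5836. By deposited tissue means, 12 of the 33 genes were highest in brain, 11 in heart, 4 in liver and 2 in skin, while intestine, muscle, tail and testis had 1 each and spleen had none. The lowest deposited mean fell in liver for 18 genes, in tail for 5 and in spleen for 4. Rescaling divides brain libraries by 2.09 to 2.20 and liver libraries by 0.213 to 0.417. Orders of tissues by level, here and at the steps below, are as deposited and can change with the scaling.

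**Figure D2:**
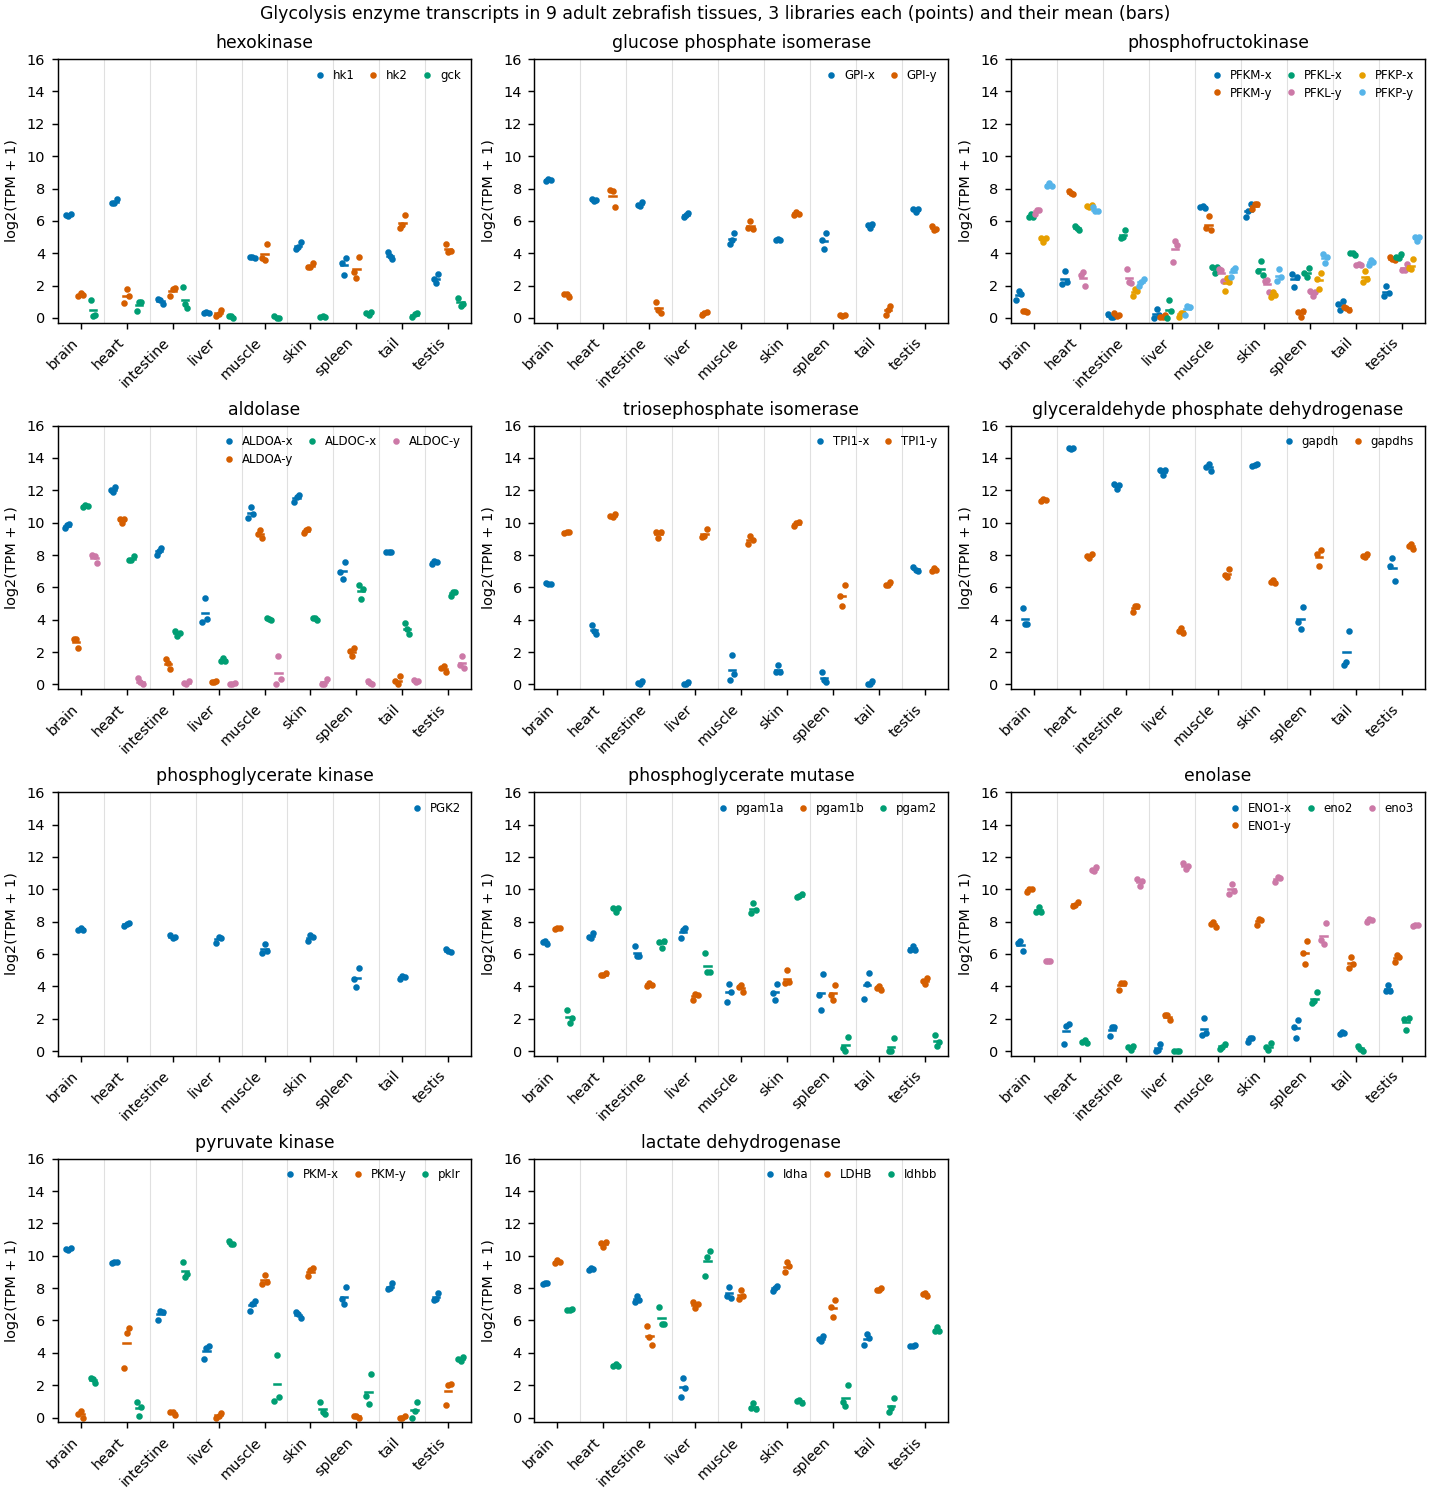
Levels of the 33 genes, as log2(TPM + 1), by enzyme step and tissue; each point is a library and each bar the mean of 3. Steps such as pyruvate kinase show copies that are high in different tissues, while phosphoglycerate kinase has a single gene that varies from 22.4 TPM in tail to 228 TPM in heart.

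Over the 10 steps with several genes and the 9 tissues, the paralogue with the highest mean share held over 90% of its step in 37 of 90 combinations, over 75% in 57 and under 60% in 16. The same paralogue led in all 3 libraries in 81 of the 90. By mean share no step was led by a single gene in all 9 tissues, although for triosephosphate isomerase this rested on testis, where TPI1-x led in replicate 1 only. Phosphofructokinase had 5 leaders across tissues, phosphoglycerate mutase, pyruvate kinase and lactate dehydrogenase had 3 each, and the other 6 steps had 2 each. The median coefficient of variation between libraries, over members above 10 TPM, ran from 5.73% in brain to 19.8% in muscle in 8 tissues and was 38.1% in spleen, where replicate 2 was the lowest library for most members and had the smallest count total.

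**Figure D3:**
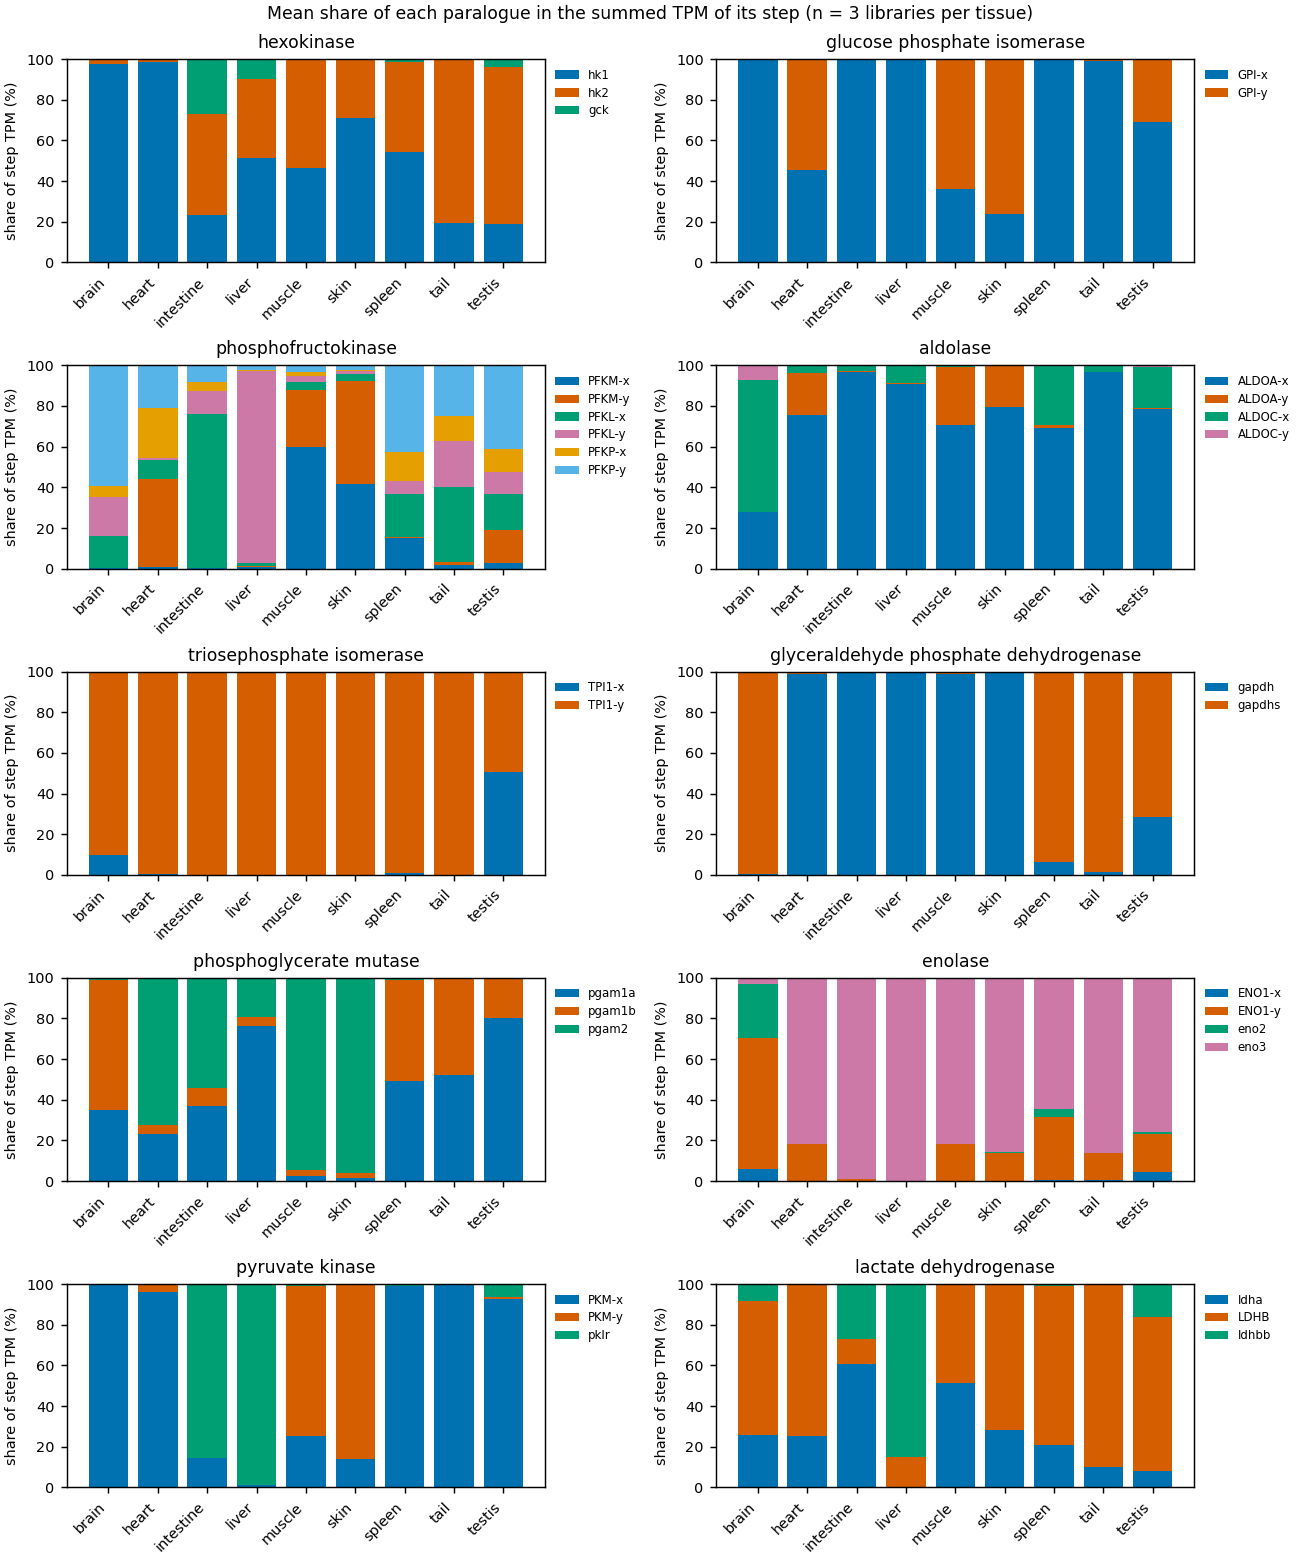
Mean share (percent) of each paralogue in the summed TPM of its step, for 10 steps and 9 tissues (n = 3 libraries each). Bars change colour between tissues at every step: pklr fills pyruvate kinase in liver, PKM-x in brain and PKM-y most of it in skin.

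Glucose enters the pathway through hexokinase, which phosphorylates it. The gene hk1 (ENSDARG00000039452) stood at 135, 134 and 161 TPM in the heart libraries and 79.6, 78.3 and 83.7 TPM in the brain libraries. Its share was 98.3 ± 0.805% in heart and 97.4 ± 0.656% in brain, and no library of another tissue passed 24.7 TPM. The log2 fold change of hk1 was 3.99 (SE 0.157, adjusted p = 2.1e-15) in heart. The gene hk2 (ENSDARG00000101482), in mammals the form of muscle and fat that insulin induces, was highest in tail, at 46.4, 51.8 and 79.9 TPM, with a share of 80.3 ± 6.46%. Testis followed at 22.6, 15.8 and 16.7 TPM and muscle at 12.03, 10.9 and 23.2 TPM, and these last groups overlapped. In tail the log2 fold change of hk2 was 3.48 (SE 0.226, adjusted p = 1.2e-11), the only gene of the 33 called higher in that tissue.

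Liver held almost none of the listed hexokinases. Their sum was 0.531 ± 0.118 TPM in liver and 4.64 ± 0.8901 TPM in intestine, against 146 ± 15.2 in heart. In mammals glucokinase, gck (ENSDARG00000068006), is the hexokinase of liver and of the pancreatic beta cell. Here it was at 0.0656, 0.0692 and 0 TPM in liver, from at most 2 estimated counts per library, and its highest value in any library was 2.802 TPM, in intestine replicate 1. The share of gck in liver did not differ detectably from that in other tissues (5.37 percentage points, exact permutation p = 0.17, adjusted p = 0.2), and it rested on sums of under 1 TPM. With hkdc1, a further hexokinase gene, added to the step, the difference was 3.14 points with an adjusted p of 0.048. In intestine hkdc1 itself reached 26.7 ± 1.65 TPM, more than the 4.64 TPM of the 3 listed genes together.

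Glucose phosphate isomerase turns the phosphorylated sugar into its fructose form. GPI-x (ENSDARG00000012987) was present in every tissue, from 27.4 TPM in spleen to 350.1, 386 and 362 TPM in the brain libraries. GPI-y (ENSDARG00000103826) passed a mean of 10 TPM in 4 tissues: heart, skin, muscle and testis. It was at 244, 227 and 115 TPM in heart, 82.5, 92.7 and 85.6 TPM in skin, 46.3, 62.4 and 43.9 TPM in muscle and 50.5, 42.2 and 45.003 TPM in testis. In the 15 libraries of the 5 other tissues it ranged from 0.0896 to 1.82 TPM. GPI-y took 76.01 ± 0.684% of the step in skin, 63.8 ± 8.09% in muscle and 54.3 ± 9.95% in heart, and there heart replicate 3 stood apart with GPI-x in the lead. In testis its share was 31.02 ± 1.53%, and its log2 fold change was 4.96 in heart and 2.72 in testis, both called.

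Phosphofructokinase, which commits the sugar to glycolysis, was the step with the most copies and the most varied use. In mammals the M form serves muscle, the L form liver and the P form, named for platelets, brain and other tissues. The M pair held 88.1 ± 1.06% of the step in muscle, against a mean of 22.1% over the 24 other libraries (difference 65.96 percentage points, exact permutation p = 0.0068, adjusted p = 0.011, two-sided, adjusted over the 11 shares tested in this way). The skin libraries lay higher still, up to 94.9%. In these tests the 3 libraries of a tissue are shuffled like unrelated ones, so p does not cover the spread between tissues, and the smallest p they can give is 0.00034.

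The M copies were not used alike. PFKM-x was at 116, 121 and 109 TPM in muscle and 73.7, 96.5 and 129.7 TPM in skin, which overlapped, but only 3.25, 6.58 and 3.67 TPM in heart. PFKM-y (ENSDARG00000060797) showed the opposite order, at 226, 211 and 204 TPM in heart, 105, 128 and 129.8 TPM in skin and 46.01, 77.1 and 42.6 TPM in muscle. Heart therefore held its M type transcripts almost wholly as PFKM-y. Between heart and muscle the log2 fold change was -4.45 (SE 0.258, adjusted p = 2.5e-12) for PFKM-x and 1.98 for PFKM-y, both called. Outside these 3 tissues the highest value of PFKM-y was in testis, at 12.5, 11.4 and 10.9 TPM.

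The P pair held 64.9 ± 0.922% of the step in brain (difference 37.9 percentage points, exact permutation p = 0.00034, adjusted p = 0.00075), above every other library, of which spleen replicate 1 came nearest at 57.5%. PFKP-y (ENSDARG00000028000) made nearly all of it, at 281, 323 and 286 TPM in the brain libraries, and was next highest in heart at 117, 97.6 and 96.2 TPM. PFKP-x (ENSDARG00000012801) had its highest level in heart instead, at 119, 116 and 124 TPM, with 29.9, 24.5 and 29.4 TPM in brain and 0.0632 to 11.3 TPM in the other 21 libraries. Its log2 fold change in heart was 4.63 (SE 0.181, adjusted p = 2e-15). PFKP-y also led the step in spleen and testis, at shares of 42.7% and 40.9%.

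The L pair held 95.9 ± 1.36% of the step in liver (difference 63.6 percentage points, exact permutation p = 0.00034, adjusted p = 0.00075). The liver copy was PFKL-y (ENSDARG00000099755), at 9.95, 26.3 and 21.5 TPM, with a share of 94.1 ± 3.17%, and the intestine copy was PFKL-x (ENSDARG00000060504), at 29.6, 30.9 and 41.4 TPM, with a share of 75.8 ± 4.47%. In liver PFKL-x was at 0, 1.12 and 0.352 TPM. As deposited, neither copy had its highest level there. In brain PFKL-y was at 85.4, 101 and 102 TPM and PFKL-x at 74.5, 84.5 and 73.2 TPM, both above all other libraries. The deposited liver sum of the 6 genes was 20.7 ± 9.51 TPM, the lowest of the 9 tissues, against 501 ± 32.5 in brain and 492 ± 24.5 in heart. Rescaling divides liver libraries by 0.213 to 0.417 and brain libraries by 2.09 to 2.20, so these orders depend on the scaling.

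Aldolase cleaves the doubly phosphorylated sugar into a pair of triose phosphates. Among the listed aldolases, ALDOA-x (ENSDARG00000011665), a copy of the mammalian muscle form, led in all tissues but brain. Aldolase genes outside the list were not counted, so the main aldolase of a tissue is not given. It was at 4160.3, 3748 and 4630.1 TPM in heart, 2478, 3078 and 3299.8 TPM in skin and 1268, 1975 and 1470.2 TPM in muscle, in that order without overlap. ALDOA-y (ENSDARG00000034470) was high in the same 3 tissues, at 1203, 998 and 1186 TPM in heart, 666, 747 and 784 TPM in skin and 630.3, 753 and 525 TPM in muscle, where skin and muscle overlapped. Elsewhere ALDOA-y ranged from 0 to 6.13 TPM over 18 libraries. Its log2 fold change was 6.87 in heart and 5.93 in muscle, both called, and 0.84 (SE 0.196, adjusted p = 0.0019) between heart and muscle, below the fold limit. That adjusted p was 0.055 with edgeR on rounded counts and 0.11 with a pseudocount of 0.1.

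In brain the aldolase C pair took over, in mammals the form of neurons and glia. ALDOC-x (ENSDARG00000019702) was at 2041, 2160.2 and 2089.8 TPM in brain and next at 203, 205 and 241 TPM in heart. ALDOC-y (ENSDARG00000057661) was at 259.6, 249 and 178 TPM in brain and from 0 to 2.405 TPM in the 24 other libraries. Together they held 71.9 ± 1.72% of the listed aldolases in brain (difference 63.2 percentage points, exact permutation p = 0.00034, adjusted p = 0.00075), and at most 36.1% elsewhere, in spleen replicate 1. In brain the log2 fold change was 6.61 (SE 0.1397, adjusted p = 9e-22) for ALDOC-x and 7.48 for ALDOC-y.

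Liver was the tissue with the least of the 4 listed aldolases, 24.9 ± 14.4 TPM. ALDOA-x was at 13.8, 39.3 and 15.5 TPM there, and its log2 fold change was -4.94 (SE 0.211, adjusted p = 8.2e-15).

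Triosephosphate isomerase interconverts the triose phosphates. TPI1-y (ENSDARG00000040988) was the copy of most tissues, with 1339.6, 1286 and 1481 TPM in heart, 878, 1007 and 1033 TPM in skin and 546, 584 and 766 TPM in liver. It was lowest in spleen, at 43.7, 27.5 and 69.4 TPM, and tail, at 69.6, 69.3 and 79.7 TPM, with log2 fold changes of -3.34 and -2.53. TPI1-x (ENSDARG00000025012) was a gene of testis and brain. It was at 152, 134 and 128 TPM in testis, 76.2, 72.8 and 73.7 TPM in brain and 11.7, 8.74 and 7.65 TPM in heart, and ranged from 0 to 2.48 TPM in the other 18 libraries. In testis the copies were level, since TPI1-y was at 129, 144 and 132 TPM and TPI1-x held 50.5 ± 3.12% of the step. The log2 fold change of TPI1-x in testis was 5.61 (SE 0.196, adjusted p = 2.3e-17). The highest of those 18 libraries was muscle replicate 2, where germ cell markers summed to 27.04 TPM and lymphoid and myeloid markers to 254 TPM. In muscle replicate 3 germ cell markers summed to 14.7 TPM, with TPI1-x at 0.583 TPM. A link between these values was not tested.

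Glyceraldehyde phosphate dehydrogenase, which oxidises the triose, changed copies between 2 sets of tissues. The gene gapdh (ENSDARG00000043457) was at 25432, 23607 and 25067 TPM in the heart libraries, where its mean ranked 2 among all genes. It was at 11486, 12089.7 and 12904 TPM in skin, 11195, 12646 and 9317 TPM in muscle, 9681, 7880.4 and 9844 TPM in liver and 5294, 4346 and 5064 TPM in intestine. In brain it was only at 25.7, 12.4 and 12.2 TPM, in spleen at 13.8, 9.86 and 26.2 TPM, in tail at 1.34, 1.63 and 9.06 TPM and in testis at 159, 225 and 84.9 TPM. The groups of 5 and 4 tissues did not overlap in any library. The log2 fold change of gapdh was -8.301 (SE 0.316, adjusted p = 1e-15) in tail and -5.96 in brain.

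The gene gapdhs (ENSDARG00000039914), whose mammalian counterpart is the sperm form, filled the step in these same tissues. It was at 2615, 2883 and 2714 TPM in brain, 382, 412 and 337 TPM in testis, 262, 162 and 313 TPM in spleen and 242, 234 and 269 TPM in tail. Heart held as much of it as tail, 245, 227 and 265 TPM, while liver was lowest at 8.99, 10.2 and 8.13 TPM. Its share was 99.4 ± 0.309% in brain, 98.5 ± 1.52% in tail, 93.8 ± 1.41% in spleen and 71.7 ± 7.64% in testis, and at most 1.08% in the 5 other tissues. The log2 ratio of gapdh to gapdhs ran from -7.35 ± 0.637 in brain to 9.82 ± 0.321 in liver. In brain the log2 fold change of gapdhs was 4.71 (SE 0.142, adjusted p = 7.5e-19). Even where gapdhs led, the summed level of the step was low outside brain: 262 ± 84.6 TPM in spleen and 252 ± 22.8 TPM in tail.

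**Figure D4:**
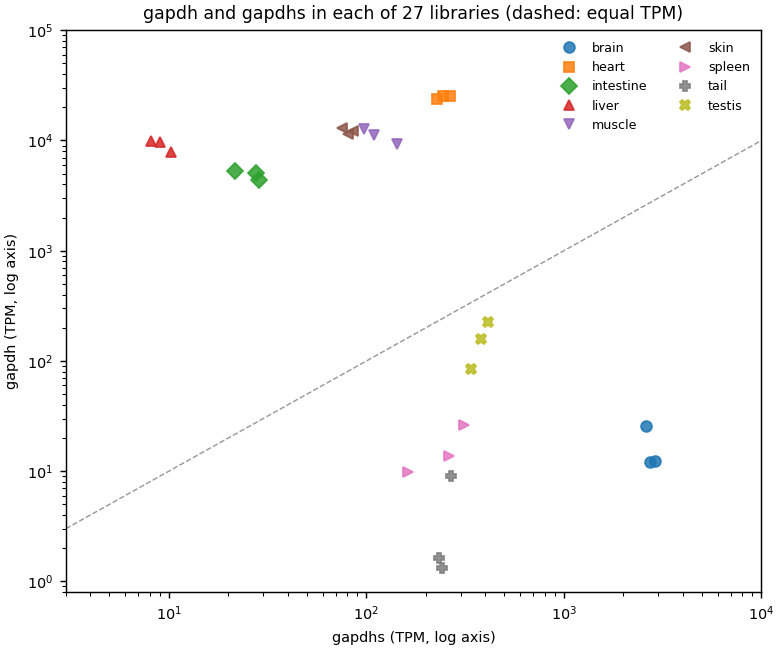
TPM of gapdh against gapdhs in each of the 27 libraries (both axes log; the dashed line marks equal TPM). The 15 libraries of heart, intestine, liver, muscle and skin lie above the line and the 12 of brain, spleen, tail and testis below it.

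Phosphoglycerate kinase makes the first ATP of the pathway and had 1 gene here, listed as pgk1 and labelled PGK2. PGK2 was among the most even of the 33, at 213, 229 and 242 TPM in heart, 175, 192 and 181 TPM in brain and 21.2, 23.5 and 22.6 TPM in tail, a 10.2-fold range of means. Spleen was as low as tail, at 21.2, 14.7 and 33.9 TPM, with a log2 fold change of -2.15 in spleen. Intestine, skin and liver lay between, at means of 134, 129 and 119.8 TPM.

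Phosphoglycerate mutase moves the phosphate on the carbon chain, with a brain type and a muscle type in mammals. The muscle type, pgam2 (ENSDARG00000057571), was at 732, 780.1 and 837 TPM in skin, 374, 555 and 412 TPM in muscle and 452, 392 and 448 TPM in heart, the last pair overlapping. Its share in muscle was 94.5 ± 0.128% (difference 63.9 percentage points, exact permutation p = 0.0068, adjusted p = 0.011), and skin was as high, at 95.3% to 96.3%. Spleen, tail and testis had 0 to 1.03 TPM, and brain had 4.86, 2.31 and 3.1997 TPM. Intestine and liver also held pgam2, at 108, 83.2 and 109 TPM and 65.8, 27.9 and 29.01 TPM. Skeletal muscle markers summed to 21.1 to 32.1 TPM in intestine and 1.11 to 3.86 TPM in liver. The source of pgam2 transcripts in these tissues was not tested. The log2 fold change of pgam2 was 5.51 (SE 0.229, adjusted p = 5.5e-15) in skin and 2.17 in intestine, both called. Between heart and muscle it was -0.04 (SE 0.306, adjusted p = 0.98), and its sign changed when heart replicate 2 or muscle replicate 2 was left out (0.030 and 0.13).

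The brain type has a pair of genes, and they differed as well. The gene pgam1b (ENSDARG00000014068) was at 187, 190.4 and 190.3 TPM in brain and no higher than 30.6 TPM in the other 24 libraries, with a log2 fold change of 3.52 (SE 0.1602, adjusted p = 2.5e-15) in brain. The gene pgam1a (ENSDARG00000005423) was highest in liver, at 127, 181 and 194 TPM, which overlapped heart at 133, 128 and 159 TPM, ahead of brain at 105, 112 and 96.8 TPM and testis at 76.1, 88.6 and 75.8 TPM. It led the step in liver with 76.4 ± 11.3% and in testis with 80.1 ± 3.31%. In spleen and tail pgam1a and pgam1b were near level, and the lead changed between libraries.

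Enolase, the next enzyme, was led by a different copy in brain than elsewhere. The muscle form of mammals, eno3 (ENSDARG00000039007), led in the 8 other tissues, and its highest level was in liver, at 3176, 2444 and 2724 TPM, overlapping heart at 2327, 2256 and 2639 TPM. Muscle held 835, 1301 and 952 TPM, less than liver. The share of eno3 in muscle, 81.5 ± 2.76%, was not detectably different from the 74.4% of other tissues (7.06 percentage points, exact permutation p = 0.78, adjusted p = 0.86). In brain eno3 was at 45.7, 45.6 and 46.2 TPM, the lowest of the tissues, with a log2 fold change of -4.04 (SE 0.167, adjusted p = 3.9e-16).

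The other 3 enolases all had their highest level in brain. ENO1-y (ENSDARG00000022456) was at 916, 1030.2 and 1025 TPM in brain with 64.01 ± 2.93% of the step, and at 493, 529 and 583 TPM in heart. ENO1-x (ENSDARG00000013750) was at 102, 111 and 72.9 TPM in brain, 11.9, 16.3 and 12.2 TPM in testis and at most 3.11 TPM elsewhere. The neuronal form eno2 (ENSDARG00000014287) was at 391, 481 and 379 TPM in brain and listed at 0 in all 3 liver libraries. It was the most brain-weighted of the set after ALDOC-y, since 97.2% of its tissue means summed fell in brain. Its share in brain was 26.9 ± 1.997% against a mean of 0.608% elsewhere (difference 26.3 percentage points, exact permutation p = 0.00034, adjusted p = 0.00075), and the log2 fold change was 7.89 (SE 0.1501, adjusted p = 1.3e-22). Spleen came next, at 6.71, 7.36 and 11.4 TPM from 118, 80.0 and 232 estimated counts, where eno2 was the only gene of the 33 called higher (log2 fold change 1.72). Neuron markers summed to 1.11 to 2.13 TPM in spleen against 6957 to 7674 in brain.

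Pyruvate kinase had 3 copies, and each led in its own tissues. PKM-x (ENSDARG00000099730) was at 1384, 1334 and 1443 TPM in brain and 755, 783 and 797 TPM in heart, and it held 99.7% of the step in brain, 96.3% in heart and 99.9% in tail. PKM-y (ENSDARG00000099860) was at 424, 552 and 598 TPM in skin and 306, 439 and 337 TPM in muscle, which overlapped. Outside heart, skin and muscle it ranged from 0 to 3.25 TPM. Its share was 86.2 ± 3.5996% in skin and 73.6 ± 3.604% in muscle. Heart had 7.51, 36.3 and 46.3 TPM of PKM-y in replicates 1, 2 and 3, the largest relative spread of any member there. Skeletal muscle markers summed to 4906, 5769.6 and 7588 TPM in the same libraries. Whether these values are linked was not tested. The log2 fold change of PKM-y was 6.48 (SE 0.307, adjusted p = 6.5e-14) in muscle and -3.86 between heart and muscle.

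The liver and red cell form of mammals, pklr (ENSDARG00000042010), was at 1927, 1683 and 1719 TPM in liver and 772, 407 and 463 TPM in intestine. It held 99.03 ± 0.337% of the step in liver (difference 87.2 percentage points, exact permutation p = 0.00034, adjusted p = 0.00075) and 85.5 ± 5.97% in intestine. Its log2 fold change was 8.27 (SE 0.391, adjusted p = 5.1e-14) in liver, the largest rise of any member in any tissue, and 6.296 in intestine. Relative to the liver mean, the intestine libraries held 43.5, 22.9 and 26.1% of pklr, while the same libraries held 22.2, 8.35 and 4.32% of the summed liver markers. In spleen, which held the most erythrocyte transcripts, pklr was at 1.52, 0.774 and 5.37 TPM. Among the other tissues the highest value was 13.7 TPM in muscle replicate 2, against 1.03 and 1.46 in its fellows.

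Lactate dehydrogenase A is in mammals the form of skeletal muscle, and B that of heart. The gene ldha (ENSDARG00000101251) was at 549.6, 593 and 577 TPM in heart, 300.3, 313 and 318 TPM in brain and 184, 269.9 and 167 TPM in muscle. Its share was nonetheless larger in muscle than elsewhere, 51.4 ± 3.51% against a mean of 22.3% (difference 29.1 percentage points, exact permutation p = 0.0096, adjusted p = 0.013), though intestine was higher still at 60.6 ± 12.4%. Liver held hardly any, at 1.45, 4.49 and 2.55 TPM, with a log2 fold change of -4.96 (SE 0.169, adjusted p = 3.2e-16).

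LDHB was highest in heart, at 1800.0, 1502 and 1853 TPM, ahead of brain at 747, 857 and 785 TPM and skin at 518, 784 and 653 TPM, which overlapped. The log2 fold change of LDHB was 3.13 (SE 0.189, adjusted p = 5.4e-12) in heart and 3.26 for ldha in the same tissue. The share of both B genes together in heart was 74.9 ± 2.72%, and the other tissues had a mean of 74.4% (0.578 percentage points, exact permutation p = 0.96, adjusted p = 0.96). The second B gene, ldhbb (ENSDARG00000071076), was a liver gene instead. It was at 429, 971 and 1264 TPM in liver, where replicate 1 was lowest, and held 85.01 ± 8.796% of the step there. Brain had 101, 99.02 and 103 TPM, intestine 113, 54.8 and 53.7 TPM and testis 38.99, 48.4 and 39.99 TPM, while muscle, skin, spleen and tail had 0.284 to 3.02 TPM. In liver the log2 fold change of ldhbb was 6.52 (SE 0.257, adjusted p = 2.4e-15). Relative to the liver mean, intestine held 12.8, 6.17 and 6.05% of ldhbb, near the share of summed liver markers in replicates 2 and 3 and below it in replicate 1.

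Across the set, heart and brain had the largest counts of the 33 genes called higher, but in brain many of all genes were called higher too. In brain 22 were called higher, where 42.8% of all genes tested were, and 10 lower, where 8.85% were. After rescaling 17 were higher and 10 lower, against 20.4% and 17.4% of all genes. The median log2 fold change of the 33 in brain was 2.26 (all genes 0.754), or 1.02 after rescaling (all genes -0.114). In heart 22 were called higher, where 8.28% of all genes were, and 4 lower, where 13.1% were, and all 22 were also called after rescaling, which left 3 lower (8.96% of all genes higher and 11.2% lower). The heart median was 2.14 (all genes -0.324).

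Muscle and skin had genes called in both directions, often copies of the same step. In muscle 11 of the 33 were called higher (8.8% of all genes) and 8 lower (4.76%), with the same counts after rescaling (9.76% and 3.63%). The 11 included PFKM-x, PFKM-y, ALDOA-y, pgam2 and PKM-y, and among the 8 were ldhbb and pgam1a, at log2 fold changes of -3.58 and -1.996. In skin 13 were higher (7.48%) and 13 lower (14.4%), and after rescaling 16 were higher (11.3%) and 7 lower (5.69%). Without the skin and tail libraries muscle had 12 higher and 10 lower, counts not set here against all genes in that fit.

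In liver and intestine more of the 33 were called lower than higher, as among all genes. In liver 6 were called higher (3.97% of all genes) and 22 lower (52.9%), or 10 higher (12.4%) and 20 lower (18.2%) after rescaling. The 6 were gapdh, eno3, pgam1a, pklr, ldhbb and PFKL-y, the last at 1.201 and below the fold limit without liver replicate 2 (0.94). In intestine 7 were higher (8.69%) and 17 lower (29.2%), or 12 higher (14.2%) and 13 lower (14.5%) after rescaling. The 7 were PFKL-x, gapdh, pgam2, eno3, pklr, ldha and ldhbb, with log2 fold changes of 3.25 for gapdh and 2.56 for ldhbb.

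In spleen and tail most of the 33 were called lower and 1 higher each. In spleen 1 gene was called higher (9.45% of all genes) and 20 lower (15.7%), led by gapdh at -5.996, and after rescaling 1 was higher (7.79%) and 21 lower (16.6%). In tail 1 was higher (14.8%) and 19 lower (12.3%), led by gapdh and by pgam2 at -4.999, and after rescaling 1 was higher (12.6%) and 18 lower (13%). Testis depended on the scaling: 8 were called higher (46.9%) and 9 lower (5.2%) as deposited, but 3 higher (22.7%) and 17 lower (16.5%) after rescaling. The 3 were GPI-y, TPI1-x and ENO1-x. Called higher only as deposited were hk2, gapdhs, pgam1a, PFKP-y and ldhbb, among them hk2 at 1.66 (0.54 after rescaling) and ldhbb at 1.77 (0.49), while pgam2 was lower under both, at -4.59 as deposited. The pgam1a value turned from 1.06 to -0.24 after rescaling, and as deposited it fell below the fold limit without testis replicate 2 (0.99) or spleen replicate 2.

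**Figure D5:**
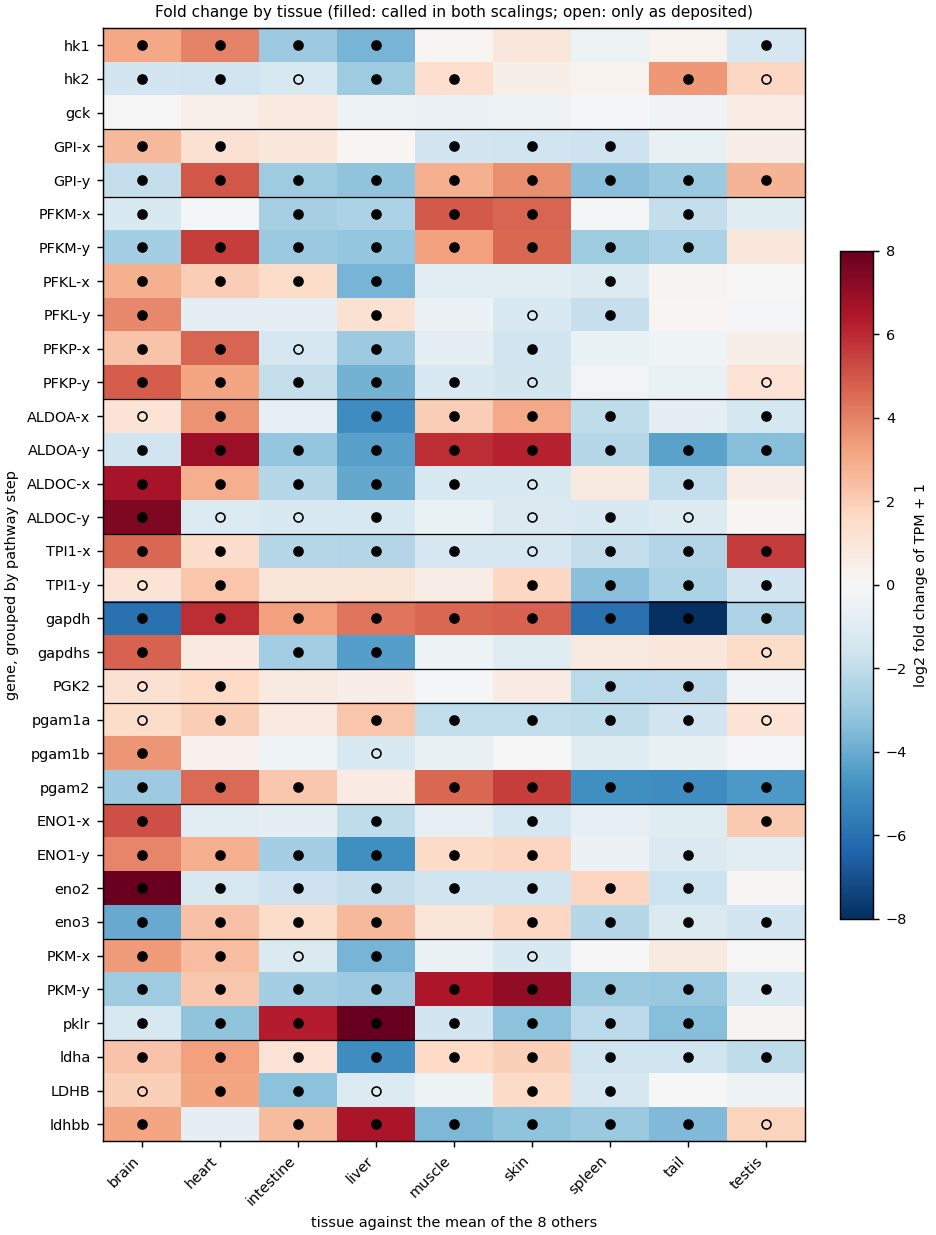
Log2 fold change of TPM + 1 of each of the 33 genes in each tissue against the mean of the 8 others; circles mark calls, filled where the call also held after rescaling. Brain and heart have 22 genes called higher each, and liver has 22 called lower.

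Heart and muscle, both striated muscles, were compared directly. In heart 21 of the 33 were called higher (7.61% of all genes) and 4 lower (12.3%), or 20 (7.59%) and 4 (12.6%) after rescaling. The 4 lower were hk2, PFKM-x, PKM-y and pklr. The limma call of pklr, at -1.49 (SE 0.521, adjusted p = 0.033), was lost without muscle replicate 2 (-0.58, adjusted p = 0.34), heart replicate 2 (-1.26, adjusted p = 0.13) or heart replicate 3 (-1.52, adjusted p = 0.068). Of those higher, gapdh, at 1.17 (SE 0.421, adjusted p = 0.038), lost its call without any single heart or muscle library (adjusted p = 0.054 to 0.12) and after rescaling (adjusted p = 0.057). PKM-x and hk1 were higher in heart, at log2 fold changes of 2.66 (SE 0.238, adjusted p = 4.5e-09) and 3.42, as was PFKP-x at 4.79. Heart thus held hk1, PFKM-y and PKM-x where muscle held hk1 and hk2 at like levels, PFKM-x and PKM-y. Both tissues shared GPI-y, ALDOA-x, TPI1-y, gapdh, pgam2 and eno3 as leading copies.

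Skin was set against muscle after the values were seen, because both held the same markers. Of the 33 genes, 2 were called higher in skin (1.65% of all genes) and 0 lower (3.32%). With limma 7 were lower and 10 higher at an unadjusted p under 0.05, while edgeR called 0 lower and DESeq2 1. These further counts are not set against all genes under the same settings, so they cannot be compared with a background. The 2 genes called higher with limma were LDHB, at 1.75 (SE 0.252, adjusted p = 6.2e-05), and PFKM-y, at 1.16. After rescaling 9 were higher (3.11%) and 0 lower (1.77%), the further 7 being ALDOA-x, GPI-y, PGK2, TPI1-y, eno3, hk1 and pgam2. Summed skeletal muscle markers in skin were 81.3, 82.3 and 93.6% of the muscle mean, while LDHB was 269, 407 and 339% and PFKM-y 189.5, 232 and 235%.

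A further list of 43 pathway genes, all passing the filter, covered regulators, gluconeogenesis, and pyruvate and lactate handling. Counts called are given with the percent of all genes in brackets. In brain 21 were higher (42.8%) and 11 lower (8.85%), in heart 15 (8.28%) and 13 (13.1%). Intestine had 12 higher (8.69%) and 14 lower (29.2%), and liver 8 (3.97%) and 21 (52.9%). Muscle had 11 higher (8.8%) and 2 lower (4.76%), and skin 16 (7.48%) and 7 (14.4%). Spleen had 3 higher (9.45%) and 25 lower (15.7%), tail 5 (14.8%) and 18 (12.3%), and testis 14 (46.9%) and 7 (5.2%). After rescaling brain had 7 higher (20.4%) and 13 lower (17.4%), and testis 5 (22.7%) and 22 (16.5%). Intestine then had 19 higher (14.2%) and 10 lower (14.5%), liver 14 (12.4%) and 16 (18.2%), and skin 20 (11.3%) and 4 (5.69%). Heart had 15 higher (8.96%) and 10 lower (11.2%), and muscle 11 (9.76%) and 1 (3.63%). Spleen had 3 higher (7.79%) and 26 lower (16.6%), and tail 4 (12.6%) and 21 (13%). The gluconeogenic genes fbp1b, the fructose bisphosphatase that opposes phosphofructokinase, and pck1, which makes phosphoenolpyruvate, were at 2448 ± 829.6 and 1293 ± 1078 TPM in liver. In intestine they were at 926 ± 278 and 2142 ± 1738 TPM. The pck1 libraries of these tissues overlapped, at 280 to 3722 TPM in intestine and 107 to 2214 TPM in liver. The muscle bisphosphatase fbp2 was at 31.1 ± 6.94 TPM in muscle and 35.5 ± 0.876 TPM in skin, with at most 0.539 TPM in the 21 other libraries.

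Other genes of this list also differed between tissues. The gene bpgm, which in red cells diverts a glycolytic intermediate to the ligand that lowers the oxygen affinity of haemoglobin, was at 250.3 ± 66.8 TPM in skin and 19.7 ± 7.196 TPM in muscle, and its log2 fold change between them was 3.63. In spleen, where erythrocyte markers were highest, bpgm was at 7.35 ± 2.07 TPM. An enolase relative of sperm in mammals, eno4, was at 121 ± 20.1 TPM in testis, with a log2 fold change of 6.49. The glucokinase regulator gckr was at 10.8 ± 0.964 TPM in intestine and listed at 0 in all 3 liver libraries. The gene pfkfb3, which makes the activator of phosphofructokinase, was at 99.7 ± 15.8 TPM in brain and 93.7 ± 21.6 TPM in muscle. A lactate transporter, SLC16A3 (ENSDARG00000045051), was at 156 ± 39.3 TPM in heart and 103 ± 29.8 TPM in skin, which overlapped, and 55.8 ± 29.6 TPM in muscle. The other identifier with this symbol (ENSDARG00000028583) was at 0.548 ± 0.170 TPM in heart and 26.5 ± 4.63 TPM in brain.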

How the data were processed

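For each library the authors deposited an estimated count and a TPM value per Ensembl gene. The deposited estimated counts are not normalized. For the deposited TPM the authors divided by effective length and scaled every library to one sum. The submitters' processing notes name cutadapt 1.18, HISAT2 2.1.0, SAMtools 1.9, kallisto 0.43.0 and GRCz11, with no role or order. Libraries were strand-specific and poly(A)-selected.

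Samples were grouped by the tissue in the labels. The 33 members, the 43 further pathway genes, the markers and the tests were chosen with earlier results of these data known. Every member may be named; of the further genes at most 10 are. A result on a further gene is not reported here. Symbols came from a table that named 29201 of the 32524 identifiers.

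limma 3.58.1 in R 4.3.3 modelled log2(TPM + 1) by tissue means, with a trended eBayes prior. Adjusted p-values (Benjamini-Hochberg) run over 25245 genes. The 11 shares were tested by exact permutation of 3 against 24 libraries, 2925 assignments, two-sided, in Python 3.11.15. Alternatives were edgeR 4.0.16 and DESeq2 1.42.0 on counts rounded to whole numbers, median-of-ratios rescaling over 14858 genes above 0 in all libraries, a pseudocount of 0.1, no filter, no trend, no fold limit, a replicate block and each sample left out. The comparison of skin with muscle, and fits without skin, muscle, liver or intestine libraries, were added after the data were seen.

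Replicates differed beyond sampling noise (lowest chi-square over its degrees of freedom 5.83) and correlated at r = 0.930 to 0.982 across genes, which are not independent replicates. On simulated data with 200 of 25245 genes changed 4-fold in brain, limma recovered 166, edgeR 182 and DESeq2 179. No sequence of these genes was used here.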

Additional observations from a re-analysis of the deposited data

How the results depend on the processing

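Of the 64 log2 fold changes followed, pgam2 in heart against muscle changed sign when heart replicate 2 (0.03) or muscle replicate 2 (0.13) was left out (range over libraries left out -0.15 to 0.13), pgam1a in testis changed sign after rescaling (-0.24), with edgeR (-0.37) and with DESeq2 (-0.25), and 3 values lost significance under another setting (ldhbb in testis at 0.49 after rescaling, ALDOA-y in heart against muscle at 0.79 with edgeR and 0.84 with a pseudocount of 0.1). With heart or muscle libraries left out, gapdh and pklr in heart against muscle also lost significance (1.05 to 1.27 and -2.01 to -0.58), as did gapdh after rescaling (1.16), with edgeR (1.12), with a pseudocount of 0.1 (1.17) and without the skin libraries (1.17). All others kept their direction and their side of the 0.05 threshold. Of 11 shares tested, that of gck in liver passed the threshold once hkdc1 was added (3.14 points, adjusted p = 0.048), and the other shares kept their side of the threshold under every setting run. The causes were not tested.

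Counts moved by over 1.5 times as follows. The percent of all genes called is given above as deposited and after rescaling, and is not set beside the counts of the other settings. It moved too: after rescaling it went from 3.97% to 12.4% for higher in liver and from 5.2% to 16.5% for lower in testis. A changed count is therefore not read as a result about the members. After rescaling, 12 members were higher in intestine, 10 in liver, 3 in testis and 9 in skin against muscle, and 7 were lower in skin and 17 in testis. With edgeR 12 were higher in intestine, 10 in liver, 4 in testis and 9 in skin against muscle, and 2 were lower in heart, 4 in muscle, 5 in skin and 16 in testis. With DESeq2 12 were higher in intestine, 10 in liver, 4 in testis and 8 in skin against muscle, and 2 were lower in heart, 7 in skin, 16 in testis and 1 in skin against muscle. With no fold limit 12 were higher in intestine, 3 in spleen, 3 in tail, 13 in testis and 7 in skin against muscle, and 7 were lower in heart and 15 in muscle.

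With 1 library left out, the counts of members called were 22 higher and 10 lower in brain, 22 higher and 4 to 5 lower in heart, 7 to 8 higher and 17 lower in intestine, 5 to 7 higher and 21 to 22 lower in liver, 10 to 12 higher and 7 to 9 lower in muscle, 13 to 14 higher and 12 to 15 lower in skin, 1 to 2 higher and 19 to 21 lower in spleen, 1 higher and 19 to 20 lower in tail, 7 to 8 higher and 8 to 10 lower in testis, 19 to 21 higher and 3 to 4 lower in heart against muscle and 2 to 4 higher and 0 to 1 lower in skin against muscle. In spleen the second gene came without spleen replicate 2. In skin against muscle 4 were higher without muscle replicate 2 or skin replicate 1, and 1 was lower without muscle replicate 1 or 3 or spleen replicate 2 or 3. The percent of all genes called in these fits is not given here, so the counts show only how far they moved.

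The share differences ranged, with 1 library left out, from 62.6 to 66.8 points for pgam2 in muscle, from 3.94 to 8.60 points for eno3 in muscle, from 65.0 to 69.1 points for PFKM-x and PFKM-y in muscle, from 27.9 to 31.1 points for ldha in muscle, from 62.4 to 64.3 points for ALDOC-x and ALDOC-y in brain, from 25.3 to 27.3 points for eno2 in brain, from 36.9 to 39.3 points for PFKP-x and PFKP-y in brain, from 2.19 to 10.2 points for gck in liver, from 86.7 to 90.7 points for pklr in liver, from 62.3 to 66.0 points for PFKL-x and PFKL-y in liver and from -1.26 to 2.15 points for LDHB and ldhbb in heart. Only the last changed sign.

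The labels do not say what a replicate number marks, and the numbers were not taken to pair the samples, since not every pair of same-numbered libraries passed r = 0.1. Same-numbered libraries had deviations correlated at r = -0.053 to 0.325 (mean 0.107), and 54 of 108 pairs passed 0.1. Pairs below 0.1 do not exclude pairing. Libraries of different number were not compared in this way, so whether the numbers pair the samples was not settled. With the replicate block brain kept 22 members higher and 10 lower, heart 22 and 4, and no count differed from the fit without it. Permuting within replicate number leaves a share difference itself unchanged and alters only its p. For pklr in liver, at 87.2 points, that exact permutation test gave p = 0.0014 (adjusted p = 0.0030), the smallest p it can give.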
